A study of Homo sapiens with 24 samples.

Results

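The genes of the proteasome were followed in 686Tu cells treated with EGCG, resveratrol or both agents. Members were the rows of the count table whose symbol is PSMA, PSMB, PSMC, PSMD or PSME with a number. The symbol pattern took 93 of 60617 rows, of which 42 were pseudogenes and 6 were antisense or divergent non-coding genes. Another pair of rows, PSMC3IP and PSME3IP1, names binding partners and no subunit, and they are described apart. The 42 members comprised 18 genes of the 20S core, 20 genes of the 19S regulatory particle and its base chaperones, and 4 genes of activators. Enough counts for the edgeR test were found for 40 of them.

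686Tu (MDA686TU) is a malignant human line from a squamous carcinoma of the head and neck, and the 24 libraries fell into 4 groups of 6 replicates. Control cells had no treatment, and the others received EGCG (epigallocatechin gallate, a catechin of green tea) at 40 µM, resveratrol (a stilbene of grapes) at 15 µM, or the same doses of both, for 24 h. All cells were of this 1 line and were grown in DMEM/F12 with serum. EGCG was dissolved in water while resveratrol came from a DMSO stock, and the sources used here do not state if untreated cells were given the solvent, so an effect of resveratrol and one of DMSO cannot be told apart. The sources do not say how the replicate cultures were separated, and p-values measure the spread between these libraries, which may in part be technical. Library totals lay between 7034872 and 11735574 counts, with medians of 9072849 (control), 8720820 (EGCG), 8649664 (resveratrol) and 7887159 (combination). In every group replicates 1 to 3 had a lower share of mitochondrial counts (0.249% to 0.326%) than replicates 4 to 6 (0.448% to 0.775%), a split found in the data that the labels do not name.

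The 8 markers of squamous epithelium were all expressed, with KRT5 highest at a mean of 40969 normalized counts, and none of 5 white blood cell markers reached a mean of 10. Of 5 fibroblast markers COL1A1 and COL1A2 did, COL1A1 with a mean of 1314, whereas DCN had 0.0842. The summed fibroblast markers spanned 1116 to 1349 normalized counts in control libraries, 898 to 1114 in EGCG libraries, 1312 to 1558 in resveratrol libraries and 1525 to 1753 in combination libraries. The summed epithelial markers spanned 156963 to 165841, 149925 to 169647, 129428 to 137153 and 128074 to 139281 in the same order. Both sums thus moved with resveratrol, and their part in the results on the proteasome was not tested. Of 4 endothelial markers only VWF reached a mean of 10, at 12.8. In bulk RNA, fewer cells of a kind and less RNA per cell cannot be told apart.

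The proteasome is the main protease for ubiquitin-tagged proteins in the cytosol and nucleus. Its 20S core is a barrel of outer alpha rings, which form the gate, and inner beta rings, of which PSMB5, PSMB6 and PSMB7 hold the active sites. The 19S particle caps the barrel: a ring of AAA ATPases (PSMC genes) unfolds substrates and opens the gate, PSMD1, PSMD2 and PSMD4 belong to the rest of the base, and the lid carries PSMD14, which removes ubiquitin. PSMD5, PSMD9 and PSMD10 are chaperones that help the base to assemble and are absent from the finished particle. PSME1 and PSME2 together, PSME3 alone and PSME4 alone form other caps, and the interferon-inducible subunits PSMB8 and PSMB10 can replace PSMB5 and PSMB7 in the immunoproteasome.

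Levels in untreated cells were compared per gene length, as FPKM (fragments scaled by gene length and by library size). The alpha subunit gene PSMA7 had the highest level of all members, 233 ± 9.54 FPKM (SD, n = 6), followed by the beta subunit genes PSMB3 (181 ± 12.5) and PSMB6 (166 ± 6.76). Every library of PSMA7 lay above every library of PSMB3, while the libraries of PSMB3 and PSMB6 overlapped. The 7 constitutive beta genes lay within a 3.90-fold range, from PSMB2 at 46.5 to PSMB3, whereas the 7 alpha genes ranged 89.5-fold down to PSMA2 at 2.60 ± 0.257. PSMA6 was also low among the alpha genes, at 5.34 ± 0.341 FPKM.

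Within the 19S particle, PSMD2, the large scaffold of the base, had the highest level at 154 ± 3.53 FPKM. The base chaperone PSMD9 had the lowest, 3.65 ± 0.134, and its libraries overlapped those of PSMB10 (3.80 ± 0.555), next to it in the order of levels. The 6 ATPase genes lay between PSMC1 at 17.3 and PSMC3 at 81.5, and the 8 lid genes between PSMD6 at 9.41 and PSMD3 at 62.9. Among activators PSME3, the nuclear cap, led with 72.0 ± 0.767 FPKM, and PSME4, a single-chain cap linked to histone breakdown, was lowest at 11.3 ± 0.643. The inducible PSMB8 had 8.50 ± 0.492 FPKM against 139 ± 5.16 for PSMB5, whose place it takes. PSMA8, the alpha subunit of the testis, had 0 counts in 211100186, which allows up to 0.0142 CPM (counts scaled to library size), and PSMB11, the catalytic subunit of the thymic cortex, had 1 count, so neither was tested. Such limits cover counting error only.

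**Figure D1:**
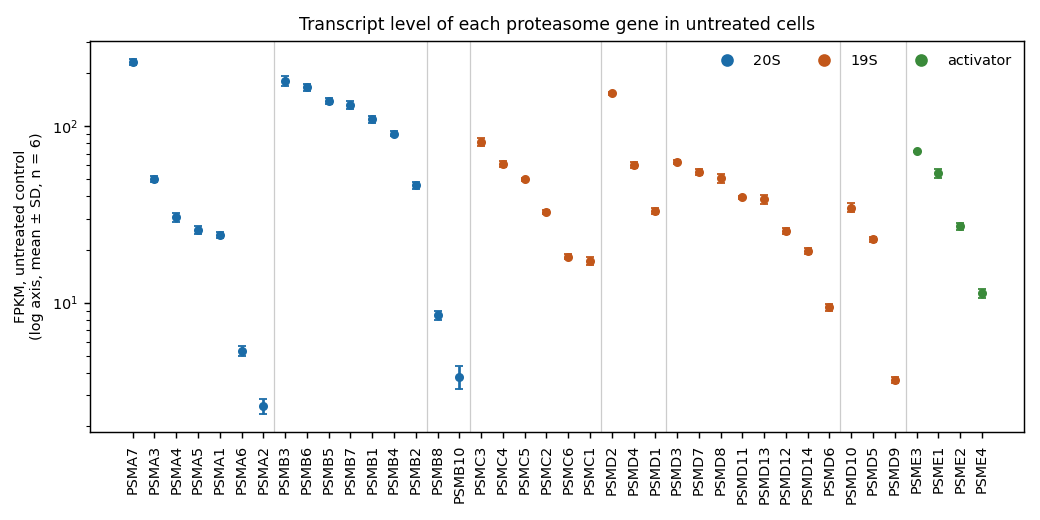
Mean FPKM (points, log axis) with SD (bars, n = 6) of the 40 tested proteasome genes in untreated cells, grouped by place in the complex (grey lines) and coloured by class. The beta ring genes sit between 46.5 and 181 FPKM, while PSMA2, PSMA6, PSMB8, PSMB10, PSMD6 and PSMD9 lie under 10.

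How far these levels can be trusted depends on how reads were assigned, and the counting program, its strand setting and its treatment of reads with several matches are not given in the sources used here. Of the 42 members, 16 had named pseudogene rows and 11 overlapped another gene on their own strand. The 13 PSMC1 pseudogenes held 69.9% of the counts of PSMC1 and its pseudogenes together, and the 4 PSMA6 pseudogenes held 48.4%, so counts of these genes are uncertain. For the 6 PSME2 pseudogenes the share was 9.68%, and for the 3 of PSMA2 it was 9.23%. PSMB10 overlapped ENSG00000261884, which had 361 counts over all libraries against 1274 for PSMB10 itself, and PSMC2 overlapped PMPCB. PSMA2 overlapped ENSG00000256646, which had 8 counts against 2499 for PSMA2. Whether reads in such overlaps were counted is not known, so the low level of PSMA2 and the range of the alpha genes are uncertain.

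EGCG alone left all proteasome genes on the uncalled side of the test. A gene was called when its edgeR quasi-likelihood p was under 0.05 and its Benjamini-Hochberg adjusted p, over all genes tested, under 0.1. None of 40 members was called, where 1.76% of 15476 genes were. At an unadjusted p under 0.05 there were 2 members, PSMC6 and PSMB8, against 10.1% of all genes, and DESeq2 called 0 members. Fitted log2 fold changes ran from -0.11 (PSMC6, an ATPase of the base) to 0.13 (PSMB8), with a median of -0.00 over members. PSMC6 had a 95% interval of -0.18 to -0.03 with edgeR adjusted p = 0.186, and PSMB8 one of 0.01 to 0.24 with adjusted p = 0.390. Without EGCG replicate 2 or without EGCG replicate 5, PSMC6 was called lower (-0.13, adjusted p = 0.0981, and -0.13, adjusted p = 0.0916).

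Resveratrol alone shifted 25 of the 40 members, mostly downward and by small amounts: 21 fell and 4 rose. Of all genes tested, 56.9% were called in this comparison, 28.9% higher and 28.0% lower, against 62.5%, 10.0% and 52.5% of the members. The median log2 fold change was -0.09 for members and 0.00 for all genes. By class, 14 of 20 genes of the 19S particle fell and none rose (median -0.10), 6 of 16 tested core genes fell and 2 rose (median -0.05), and of 4 activators PSME1 and PSME2 rose and PSME3 fell (median 0.04). On the TMM-scaled log2 CPM scale every resveratrol library lay below every control library in 10 members, and above in none, where 15.8% and 15.3% of all genes did so.

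These directions rest on the scaling, since the changes are small. With library size alone in place of TMM factors, 16 members were called, 9 higher and 7 lower, the median over all genes moved to 0.09 and that over members to -0.01. The all-gene split moved as well, to 39.7% higher and 18.5% lower. Of the 25 calls 11 were kept, and PSMD11 changed sign. By class, 2 genes of the 19S particle were then higher and 4 lower (median -0.01), and 5 core genes were higher and 2 lower (median 0.03), which turned the balance of the core, while the activators kept 2 higher and 1 lower (median 0.13). With both scalings the members' median lay below that of all genes. A change of scaling moves all genes by nearly the same amount, so this gap was bound to stay and is no separate test. Summed over members, control libraries held 58912 to 63579 normalized counts and resveratrol libraries 56709 to 58174, without overlap, whereas as CPM the sums were 6595 to 7087 and 6728 to 6988 and overlapped.

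**Figure D2:**
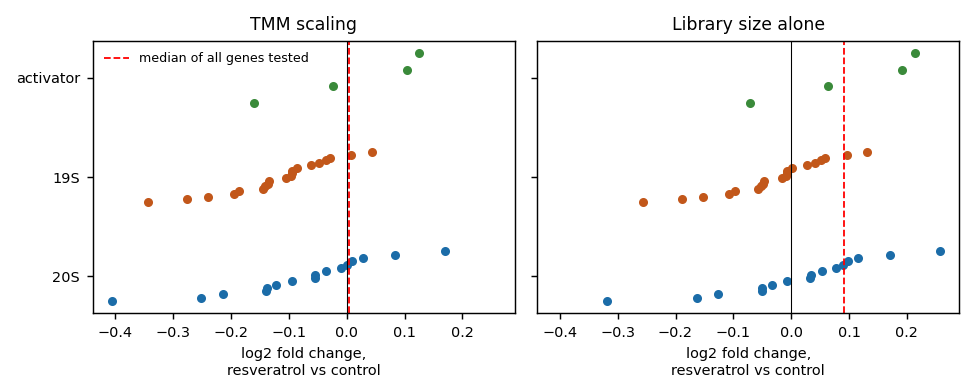
Log2 fold changes of the 40 members with resveratrol against control (points, coloured and stacked by class) with TMM scaling and with library size alone. The dashed line, the median of all genes tested, moves from 0.00 to 0.09, and the members move with it.

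The combination gave the same broad picture with more calls, 29 of 40 members, of which 21 fell and 8 rose. The background was 59.8% of all genes called, 29.9% higher and 29.9% lower, and among members 72.5% were called and 52.5% were lower. The 19S particle had 13 lower and 2 higher genes (median -0.10), the core 7 lower and 4 higher (median -0.07), and the activators 1 lower and 2 higher (median 0.07). Libraries of the groups did not overlap for 7 members lower and 2 higher, compared with 16.3% and 15.6% of all genes. With library size alone 19 members were called, 11 higher and 8 lower, 16 of the 29 calls were kept, and PSMC4 and PSMD11 changed sign. The 19S particle then had 4 higher and 5 lower genes and the core 5 higher and 2 lower. The shares of all genes called with this scaling are not given for the combination, so these counts describe the members only. The 25 calls with resveratrol and the 29 with the combination all had the same sign within replicates 1 to 3 and within replicates 4 to 6. Since the calls were made on these same libraries, such agreement was nearly given in advance. Tested in replicates 1 to 3 alone, 18 of the 25 and 25 of the 29 calls were kept, and in replicates 4 to 6 alone 19 and 22. DESeq2 on all libraries kept all 25 and all 29 calls.

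**Figure D3:**
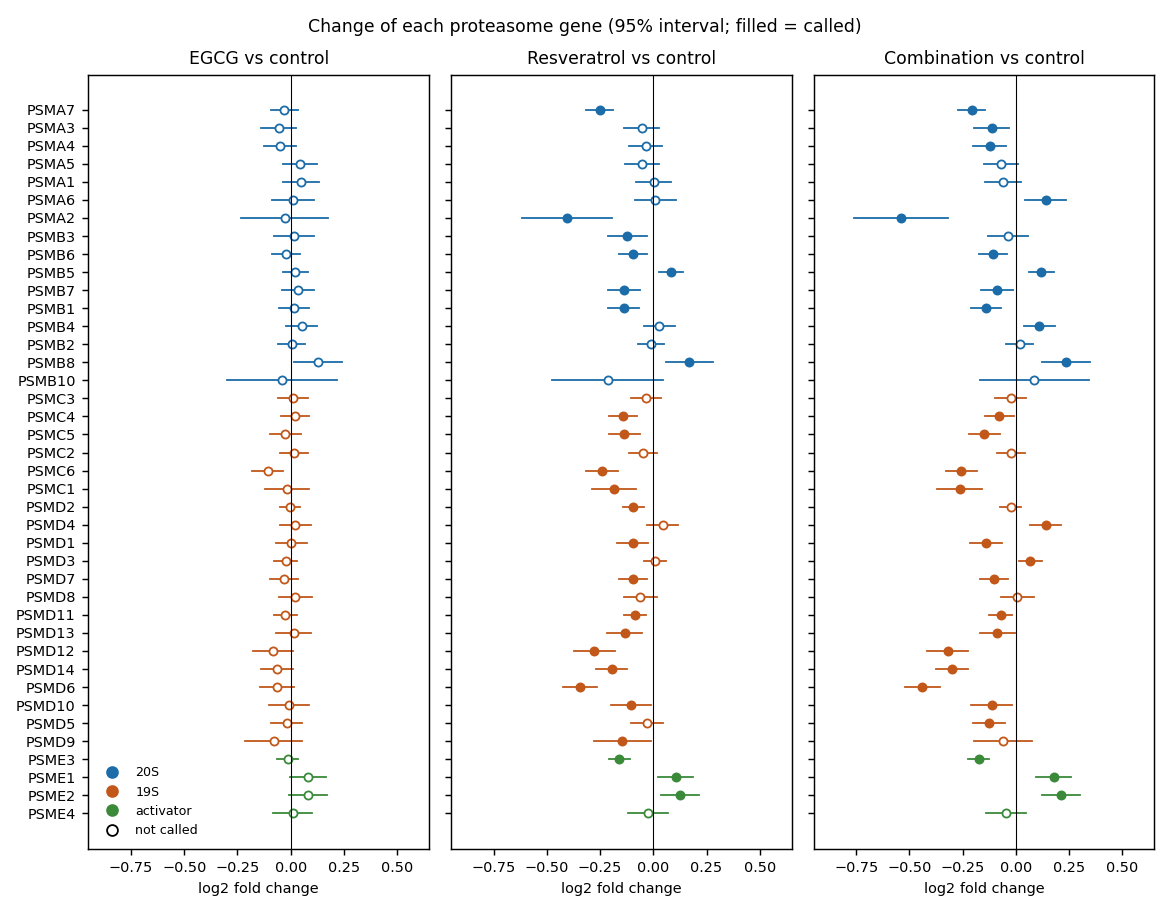
Fitted log2 fold change (points) and 95% interval (lines) of each tested proteasome gene in 3 comparisons with the control, 6 libraries per group, filled where called by edgeR. No point is filled with EGCG, and filled points lie mostly left of 0 with resveratrol and the combination, except for genes such as PSMB8, PSMB5, PSME1 and PSME2.

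In the alpha ring, which forms the gate, the largest fall was that of PSMA2 (ENSG00000106588, chromosome 7, 42916828 to 42932185, minus strand). Its normalized counts were 101 to 133 in the control (median 120.5), 99.98 to 137 with EGCG (113), 79.3 to 96.0 with resveratrol (92.1) and 57.0 to 109 with the combination (76.4). All resveratrol libraries lay below the control and EGCG libraries, while the combination was widely spread and overlapped both. PSMA2 fell by 0.41 on the log2 scale with resveratrol (SE 0.11, edgeR adjusted p = 0.00135) and by 0.54 with the combination (SE 0.11, adjusted p = 6.35e-05). PSMA2 had the fewest counts of the tested alpha genes and the largest error among them, and its overlap with another gene makes its counts uncertain.

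PSMA7, the most abundant alpha gene, also fell with both treatments. Its libraries held 3367 to 3769 normalized counts in the control (median 3539), 3341 to 3638 with EGCG (3474), 2859 to 3124 with resveratrol (2976) and 2955 to 3217 with the combination (3046). No library with resveratrol reached the level of one without it. The log2 fold change was -0.25 with resveratrol (SE 0.031, edgeR adjusted p = 1.90e-08) and -0.21 with the combination (SE 0.031, adjusted p = 6.18e-07). PSMA3 and PSMA4 passed the test only with the combination, at -0.11 and -0.12, and whether they differed between the treatments was tested in the comparison of the combination with resveratrol, where neither was called (-0.06 and -0.09). PSMA1 and PSMA5 were not called against the control.

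PSMA6 went the other way in cells given both agents. Normalized counts were 284 to 334 in the control (median 299), 290.4 to 331 with EGCG (301), 281 to 319.6 with resveratrol (308) and 317 to 345 with the combination (335). The combination overlapped the upper part of every other group. Its log2 fold change was 0.14 with the combination (SE 0.048, edgeR adjusted p = 0.0127) and 0.01 with resveratrol alone (adjusted p = 0.888). Counts of PSMA6 and its 4 pseudogenes together were 587 ± 36.3 (SD, n = 6) in the control and 625 ± 31.2 with the combination.

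Among the constitutive beta genes, PSMB1, PSMB6 and PSMB7 fell with both treatments, by 0.14, 0.09 and 0.14 on the log2 scale with resveratrol and by 0.14, 0.11 and 0.09 with the combination. PSMB3 fell with resveratrol (-0.12) and was not called with the combination (-0.04). PSMB4 rose with the combination (0.11). PSMB2 was not called in any comparison between groups, with values from -0.01 to 0.03.

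PSMB5, which carries the chymotrypsin-like active site and is the target of bortezomib, rose with both treatments. Its normalized counts were 2029.5 to 2239 in the control (median 2159.9), 2074 to 2247 with EGCG (2184), 2188 to 2352 with resveratrol (2239) and 2267 to 2379 with the combination (2334). All combination libraries exceeded all control and EGCG libraries, and the resveratrol libraries overlapped the control. The log2 fold change was 0.08 with resveratrol (SE 0.029, edgeR adjusted p = 0.0151) and 0.12 with the combination (SE 0.029, adjusted p = 5.98e-04).

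The inducible PSMB8 rose in both groups with resveratrol. Control libraries held 247 to 281.5 normalized counts (median 250), EGCG libraries 258 to 312 (281), resveratrol libraries 275 to 303 (289) and combination libraries 270.2 to 325 (307). The groups overlapped, with the control lowest. PSMB8 rose by 0.17 on the log2 scale with resveratrol (SE 0.055, edgeR adjusted p = 0.00921) and by 0.23 with the combination (SE 0.055, adjusted p = 4.44e-04). PSMB10 had 43.9 to 64.9 normalized counts in the control, 39.1 to 61.2 with EGCG, 35.3 to 52.6 with resveratrol and 38.7 to 65.7 with the combination, with medians of 52.8, 53.3, 47.2 and 60.4. Its log2 fold change was -0.21 with resveratrol (95% interval -0.48 to 0.05, edgeR adjusted p = 0.164) and 0.09 with the combination (-0.17 to 0.34, adjusted p = 0.583), so a change was not detectable at this depth.

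Because a ratio within a library does not depend on scaling, each inducible gene was set against the constitutive gene of the same active site. PSMB8 counted for 11.3% to 12.8% of the PSMB5 count in the control (median 12.02%), and the medians of the treated groups were 13.1% (EGCG), 12.8% (resveratrol) and 13.1% (combination). In log2 the ratio differed from the control by 0.10 (SE 0.052), 0.09 (SE 0.042) and 0.11 (SE 0.053). In 4, 6 and 5 of 6 treated libraries it lay above the control mean. Two-sided exact permutation tests of 6 against 6 libraries, whose smallest possible p is 0.00216, gave p = 0.0844, 0.0714 and 0.0606, each 0.169 after Benjamini-Hochberg adjustment over 6 tests. For PSMB10 to PSMB7 the differences were -0.10, -0.08 and 0.17, with exact permutation p = 0.439, 0.435 and 0.221 and adjusted values of 0.439, 0.439 and 0.331. None passed, and within replicates 4 to 6 the PSMB8 to PSMB5 differences were 0.06, 0.02 and 0.05 against 0.15, 0.15 and 0.17 within replicates 1 to 3.

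In the 19S lid, PSMD6 showed the clearest separation (ENSG00000163636, chromosome 3, 64010550 to 64024010, minus strand). Normalized counts were 705 to 807 in the control (median 746), 671 to 776 with EGCG (718), 562 to 617 with resveratrol (586) and 524 to 598 with the combination (541). The groups with resveratrol lay wholly below those without. PSMD6 fell by 0.34 on the log2 scale with resveratrol (SE 0.040, edgeR adjusted p = 4.03e-09) and by 0.44 with the combination (SE 0.041, adjusted p = 1.48e-11). The falls were -0.32 and -0.36 with resveratrol in replicates 1 to 3 and 4 to 6, and -0.39 and -0.49 with the combination.

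PSMD12, another lid subunit (ENSG00000197170, chromosome 17, 67337916 to 67366605, minus strand), had 1132 to 1251 normalized counts in the control (median 1188), 1039 to 1173 with EGCG (1142), 934 to 1003 with resveratrol (985) and 757 to 1012 with the combination (994.5). Again no library with resveratrol overlapped one without, and combination replicate 3 stood low. The log2 fold change was -0.28 with resveratrol (SE 0.047, edgeR adjusted p = 6.71e-06) and -0.32 with the combination (SE 0.048, adjusted p = 5.07e-07).

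PSMD14, the deubiquitinase of the lid (ENSG00000115233, chromosome 2, 161308425 to 161411717, plus strand), had 1179.5 to 1291 normalized counts in the control (median 1266), 1114 to 1267 with EGCG (1206), 1014 to 1139 with resveratrol (1094) and 937 to 1051 with the combination (1038). Both groups with resveratrol lay below the control, and the combination also lay below EGCG. PSMD14 fell by 0.20 on the log2 scale with resveratrol (SE 0.036, edgeR adjusted p = 2.51e-05) and by 0.30 with the combination (SE 0.037, adjusted p = 9.38e-09). Of the other 5 lid genes, PSMD7, PSMD11 and PSMD13 fell with both treatments, by 0.07 to 0.13 on the log2 scale, PSMD3 rose with the combination (0.07), and PSMD8 was not called.

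In the base, the ATPase gene PSMC6 (ENSG00000100519, chromosome 14, 52707178 to 52728590, plus strand) held 1158 to 1263 normalized counts in the control (median 1178), 1037 to 1192.5 with EGCG (1085), 984 to 1070.2 with resveratrol (993) and 935 to 1038 with the combination (1006). Both groups with resveratrol lay below the control and overlapped EGCG. It fell by 0.24 with resveratrol (SE 0.036, edgeR adjusted p = 8.18e-07) and by 0.26 with the combination (SE 0.037, adjusted p = 2.33e-07), on the log2 scale.

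PSMC1, a further ATPase, had 851 to 990.3 normalized counts in the control (median 919.5), 758 to 986.5 with EGCG (935.5), 763 to 858 with resveratrol (807) and 674 to 832 with the combination (776). The combination lay below the control, and resveratrol overlapped it. PSMC1 fell by 0.19 on the log2 scale with resveratrol (SE 0.051, edgeR adjusted p = 0.00232) and by 0.26 with the combination (SE 0.051, adjusted p = 4.04e-05), and with library size alone the first was not called (-0.10, adjusted p = 0.114). Summed with its pseudogenes, PSMC1 had 3043 ± 115 (SD, n = 6) normalized counts in the control, 2702 ± 111 with resveratrol and 2583 ± 136 with the combination. PSMC4 and PSMC5 fell with both treatments (-0.14 and -0.14 with resveratrol, -0.08 and -0.15 with the combination), and PSMC2 and PSMC3 were not called.

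The other base genes diverged. PSMD4, a ubiquitin receptor, had 1520.5 to 1691 normalized counts in the control (median 1592), 1511 to 1719 with EGCG (1632), 1621 to 1668 with resveratrol (1632) and 1632.5 to 1956 with the combination (1734.5). The combination overlapped the control at its lower end. PSMD4 rose with the combination (0.14 on the log2 scale, SE 0.036, edgeR adjusted p = 0.00129) and was not called with resveratrol (0.04, adjusted p = 0.328).

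PSMD2 had 6487 to 6850.3 normalized counts in the control (median 6633), 6464 to 6794 with EGCG (6650.1), 6038 to 6457 with resveratrol (6162) and 6384 to 6706 with the combination (6511). Resveratrol libraries lay below the control and the combination did not. The log2 fold change was -0.09 with resveratrol (SE 0.024, edgeR adjusted p = 0.00118) and -0.03 with the combination (adjusted p = 0.388). With library size alone the first was -0.01 (adjusted p = 0.836), so this fall rests on the scaling. PSMD1 fell with both (-0.10 and -0.14). Of the chaperones, PSMD10 fell with both (-0.10 and -0.11), PSMD9 with resveratrol (-0.145), and PSMD5 with the combination (-0.13).

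**Figure D4:**
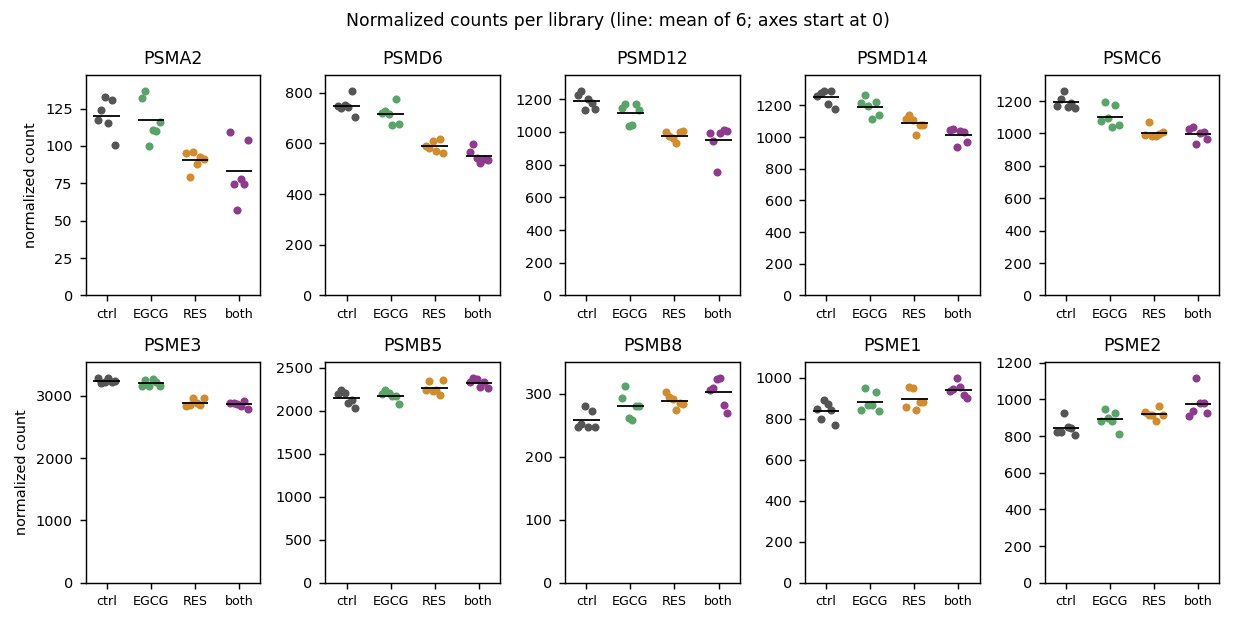
Normalized counts of 10 proteasome genes in each of 24 libraries (points) with the mean of 6 (lines), for control (ctrl), EGCG, resveratrol (RES) and the combination (both), on axes that start at 0. The groups with resveratrol sit below the control for PSMD6, PSMD12, PSMD14, PSMC6 and PSME3 and higher for PSMB5, PSMB8, PSME1 and PSME2, where the groups overlap more.

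The activators split by kind. PSME1 (ENSG00000092010, chromosome 14, 24136163 to 24138967, plus strand) and PSME2 (ENSG00000100911, chromosome 14, 24143362 to 24147570, minus strand) encode the interferon-inducible cap that favours release of peptides for antigen presentation. PSME1 had 768 to 889.7 normalized counts in the control (median 845), 837 to 951 with EGCG (867), 845 to 958 with resveratrol (881) and 904 to 998.5 with the combination (942.5). All combination libraries lay above the control, and resveratrol overlapped it. PSME1 rose by 0.10 on the log2 scale with resveratrol (SE 0.041, edgeR adjusted p = 0.0334) and by 0.18 with the combination (SE 0.042, adjusted p = 4.44e-04). The first call was lost without control replicate 6 (0.08, adjusted p = 0.106), without resveratrol replicate 2 (0.08, adjusted p = 0.107) and without resveratrol replicate 3 (0.09, p over the limit).

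PSME2 had 804 to 927 normalized counts in the control (median 835.5), 814 to 947 with EGCG (892.5), 883 to 963 with resveratrol (915) and 909 to 1116 with the combination (959.9). The ranges overlapped, with combination replicate 3 highest. PSME2 rose by 0.13 on the log2 scale with resveratrol (SE 0.043, edgeR adjusted p = 0.0148) and by 0.21 with the combination (SE 0.044, adjusted p = 9.04e-05). PSME1 and PSME2 kept their direction with library size alone, at 0.19 and 0.21 with resveratrol. That scaling moved all genes upward, so for genes already higher this was bound to follow and tests nothing.

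PSME3 (ENSG00000131467, chromosome 17, 42824385 to 42843760, plus strand), whose cap acts in the nucleus without ATP, moved the opposite way. It had 3203 to 3281.5 normalized counts in the control (median 3223), 3151 to 3274.5 with EGCG (3188), 2828 to 2963 with resveratrol (2869.6) and 2789 to 2913 with the combination (2876). The groups with and without resveratrol were fully apart. PSME3 fell by 0.16 on the log2 scale with resveratrol (SE 0.024, edgeR adjusted p = 9.06e-07) and by 0.17 with the combination (SE 0.024, adjusted p = 1.48e-07), and by 0.07 and 0.09 with library size alone, where both calls were kept. PSME4 had 940.5 to 1097 normalized counts in the control, 969.7 to 1077 with EGCG, 965 to 1034 with resveratrol and 879.5 to 1114 with the combination, and was not called (-0.02 and -0.05).

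Resveratrol could also be compared in libraries that share none with the resveratrol and control groups, as the combination against EGCG alone. In that comparison 57.8% of all genes were called, 28.7% higher and 29.1% lower, and 26 of 40 members, 6 higher and 20 lower. Of the 21 members lower with resveratrol alone and the 20 lower here, 17 were the same genes, and of the 4 and 6 higher genes PSMB5, PSME1 and PSME2 were shared. None was called in opposite directions, and 36 of 40 members had the same sign. How many of all genes agreed in this way was not counted, so the overlap describes the members and does not set them apart. When only library size was used, 18 members were called, 10 higher and 8 lower, and PSMD7 changed sign. Here too the shares of all genes with that scaling are not given, and the counts describe the members only.

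**Figure D5:**
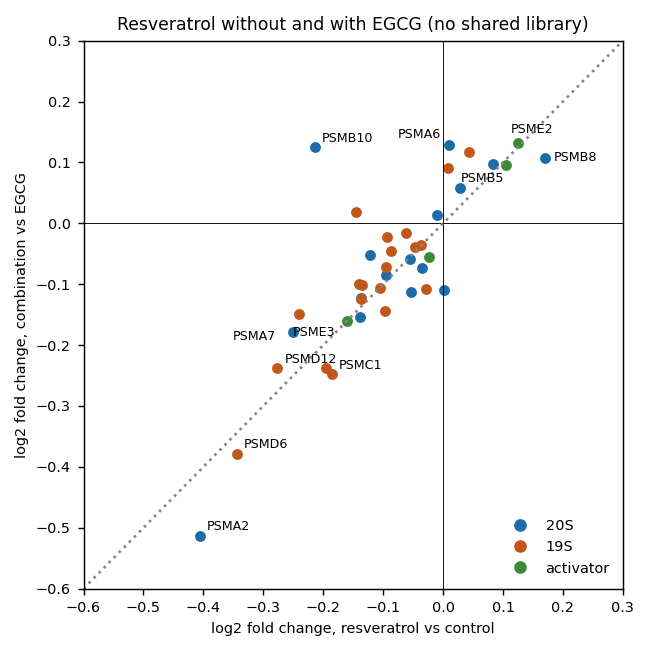
Log2 fold change of each tested proteasome gene with resveratrol against control (x axis) and with the combination against EGCG (y axis), which share no library, coloured by class, with a dotted line of equality. PSMA2 and PSMD6 lie farthest toward the lower left, and PSMB10, with few counts, lies off the line.

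Few of these genes were called when EGCG was added to resveratrol. Against resveratrol alone, 2 of 40 members were called with the combination, where 7.86% of all genes were called, 4.01% higher and 3.86% lower. An unadjusted edgeR p under 0.05 was found for 10 of 40 members and for 18.2% of all genes. PSMD2 was higher by 0.07 (SE 0.024, edgeR adjusted p = 0.0896) and PSMD14 lower by 0.11 on the log2 scale (SE 0.037, adjusted p = 0.0895). Both lay close to the limit, libraries of the groups overlapped, and the calls were lost in several settings given under the dependence on processing. Next in order were PSMA6 (0.13, adjusted p = 0.111) and PSMD4 (0.10, adjusted p = 0.127). In the interaction of the agents none of 40 members was called by edgeR or DESeq2, where edgeR called 0.265% of all genes. There, 2 members (PSMD3 and PSMD2) and 7.72% of all genes had an unadjusted edgeR p under 0.05. The 95% interval of the interaction was widest for the low genes PSMB10 (-0.03 to 0.71) and PSMA2 (-0.42 to 0.20), and for the more abundant PSME3 it ran from -0.07 to 0.07.

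Genes around the proteasome were counted in lists, to be read against the shares of all genes called, 28.9% higher and 28.0% lower with resveratrol and 29.9% each with the combination. Of 7 assembly and import factors, 4 fell with resveratrol and 4 with the combination: POMP and PSMG3 (which, with PSMG1 and PSMG2, help build the core) by 0.22 and 0.14 on the log2 scale with resveratrol, and PSMG2 by 0.31 and 0.53. PAAF1, a chaperone of the 19S base that restrains its joining to the core, rose (0.37 and 0.29), and AKIRIN2, needed for nuclear import of proteasomes, rose with the combination (0.11). With library size alone 2 of these 7 genes were higher and 2 lower with resveratrol, and PSMG2 and POMP remained among the lower ones (-0.22 and -0.13). Of 11 cofactors, 7 fell and 1 rose with resveratrol, and 6 fell and 2 rose with the combination. The ubiquitin receptor ADRM1 (-0.22 and -0.16), the deubiquitinases UCHL5 (-0.21 and -0.35) and USP14 (-0.12 and -0.14) and the inhibitor PSMF1 (-0.22 and -0.23) fell with both. Scaled by library size only, 5 of the 11 were lower and 2 higher with resveratrol, and USP14 was not called (-0.03). The counts with library size alone belong beside the split of all genes with that scaling, given above for resveratrol. That split held more higher and fewer lower genes than the shares that open this paragraph.

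Of 12 genes of ubiquitin supply and delivery, 6 fell and 3 rose with resveratrol, and 6 fell and 4 rose with the combination. The lower genes were 50.0% of the list in both comparisons, and the share of higher genes lay near that of all genes. The ubiquitin fusion gene RPS27A (-0.35 and -0.33) and the shuttle RAD23B (-0.29 and -0.37) fell, whereas UBB was not called and the segregase VCP rose (0.07 and 0.06, the latter not called with DESeq2 size factors). With library size alone this list had 5 higher and 3 lower genes with resveratrol, UBB (0.10) among the higher, and 6 higher and 4 lower with the combination. With that scaling the split of all genes also moved toward higher with resveratrol, and for the combination it is not given.

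Several regulators known to act on proteasome genes rose. NFE2L1, the factor that raises proteasome genes when proteasome activity is low, had 3812 to 3965 normalized counts in the control (median 3906), 3811 to 4167 with EGCG (3995), 5147 to 5550.4 with resveratrol (5282) and 5714 to 6160.1 with the combination (5856). The groups with resveratrol lay wholly above those without, and the combination above resveratrol. NFE2L1 rose by 0.45 on the log2 scale with resveratrol (SE 0.027, edgeR adjusted p = 2.77e-16), by 0.60 with the combination (SE 0.027, adjusted p = 4.41e-20) and by 0.15 between them (adjusted p = 2.28e-04). In its list of 6 genes SYVN1 and KEAP1 rose too, while NFE2L2, NGLY1 and DDI2 were not called with resveratrol or the combination against the control. Of the regulators of the inducible genes, IRF1 rose by 0.35 and 0.64 with the treatments and NLRC5 by 0.41 and 0.43. None of the genes in these 5 lists was called with EGCG alone. NFE2L1, SYVN1, KEAP1, IRF1 and NLRC5 were also called higher with library size alone, in both treatments. That scaling moved values upward in both, so calls in this direction could hardly be lost and this is no test of them.

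Promoters were searched for the antioxidant response element, the site to which NFE2L1 and NFE2L2 bind, since this element connects NFE2L1 to proteasome genes. The letters TGACNNNGC were sought on both strands in the 250 bases before the RefSeq start (GRCh38.p14) of the 37 members with an entry. They occurred in 8 of 37 members (21.6%) and in 10.9% of all 35116 windows of that length. The 8 were PSMB3, PSMD3, PSMD5, PSMD9, PSMD12, PSME1, PSME2 and PSME4, of which 2 rose, 3 fell and 3 were not called with resveratrol, and 3, 2 and 3 with the combination. CCAAT occurred in 16 members (43.2%, against 32.0% of all windows) and the ETS-type CCGGAAG in 9 (24.3%, against 8.52%).

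The sequences of 3 of these promoters are shown because they carry the same element before genes that rose (PSME1), fell with both treatments (PSMD12) and fell with resveratrol only in the call (PSMB3). Each runs 5′ to 3′ on the strand of the gene from 250 to 36 bases before the start, and capitals mark the element, whose first base lies 86, 165 and 104 bases before the start. They are at chr14:24135944-24136158 (plus strand), chr17:67366613-67366827 (minus strand) and chr17:38752491-38752705 (plus strand).
PSME1: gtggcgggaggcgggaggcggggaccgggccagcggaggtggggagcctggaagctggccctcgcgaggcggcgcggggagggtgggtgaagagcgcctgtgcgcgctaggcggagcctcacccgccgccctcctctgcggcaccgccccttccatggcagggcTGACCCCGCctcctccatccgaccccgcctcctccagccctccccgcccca
PSMD12: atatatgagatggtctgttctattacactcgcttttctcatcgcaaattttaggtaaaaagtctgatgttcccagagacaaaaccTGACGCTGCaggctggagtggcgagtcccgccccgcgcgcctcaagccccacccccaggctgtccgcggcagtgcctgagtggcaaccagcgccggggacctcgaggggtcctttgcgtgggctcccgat
PSMB3: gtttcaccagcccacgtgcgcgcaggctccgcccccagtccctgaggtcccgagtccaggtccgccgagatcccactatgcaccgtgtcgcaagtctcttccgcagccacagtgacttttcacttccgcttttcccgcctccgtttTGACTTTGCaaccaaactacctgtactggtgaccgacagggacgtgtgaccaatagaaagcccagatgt

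A match of letters is a description of these windows and does not show binding.

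The binding partner genes set aside above were measured in the same libraries. PSMC3IP, a factor of homologous recombination, rose by 0.26 with resveratrol and 0.44 with the combination on the log2 scale. PSME3IP1 was not called in either comparison with the control (-0.01 and -0.07).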

How the data were processed

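RNA-seq of 686Tu cells was analysed in 24 libraries, 6 per group. Per the labels and the methods, the authors isolated total RNA, prepared TruSeq stranded mRNA libraries, sequenced paired ends, converted reads with bcl2fastq 2.17.1.14, trimmed them with Trimmomatic 0.36, checked quality with FastQC 0.11.5, aligned to GRCh38 with HISAT2 2.0.4, sorted with SAMtools 1.3.1 and listed DESeq2 1.20.0. The authors deposited raw counts per gene, which were used for all fits. The deposited normalized counts, a signal, equalled the raw counts over 1 DESeq2 size factor in 24 of 24 libraries (tolerance 1e-06) and gave the values per library. The deposited FPKM values kept a constant ratio to them in 33693 of 33693 rows with counts and were used only to compare levels between genes. The counting program and annotation release are not given in the sources used here.

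Counts were fitted with edgeR 4.0.16 (R 4.3.3, limma 3.58.1): TMM, filterByExpr, glmQLFit over all 4 groups, contrasts by glmQLFTest, and Benjamini-Hochberg adjustment over 15476 genes. Called genes had adjusted p under 0.1 and p under 0.05, the limits of the methods. The biological coefficient of variation was 5.32%. On data simulated for resveratrol against control (15317 genes), edgeR called 83 of 99 tested genes changed 1.5-fold, 97 of 100 changed 2-fold and 15 unchanged ones, and DESeq2 1.42.0 called 82, 95 and 18. Only 100 genes were changed at each of these folds, far fewer than were called in the data. The members changed by less than 1.5-fold, the largest fall being -0.54 on the log2 scale. The simulation thus does not show how well such small changes are found, nor does it test the scaling. The text gives full values to the 6 members that rose most and the 6 that fell most, the inducible subunits, the activators and every member called for EGCG, the combination against resveratrol or the interaction, and others by counts and ranges, with PSMA7 and NFE2L1 added after their values were seen. Members, lists and rules were chosen with earlier results of these data known. Alternatives were DESeq2, other scalings and filters, a stricter limit, fewer groups, a replicate block, a term for replicates 1 to 3 against 4 to 6, each set alone, and each library left out. Promoters came from RefSeq GRCh38.p14 and positions of genes from GENCODE on GRCh38. One gene that the symbol pattern takes, and some genes of the lists, are not reported here.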

Additional observations from a re-analysis of the deposited data

Results flagged for a closer look

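In 64 tests (16 proteasome genes in 4 groups of 6 libraries) for a library far from the rest of its group, 3 stood out, and chance gives about 1 in 20. PSMD12 in combination replicate 3 had 757 normalized counts, where the other 5 had 944 to 1012. PSME2 in the same library had 1116, where the others had 909 to 981.5. That library was not apart in these genes only. POMP, UCHL5, TXNL1 and PSMD10, which were not among the genes tested, were also lowest there within the combination. They had 525, 276, 198 and 551 normalized counts. PSMD4, like PSME2, was highest there, at 1956. Changes given for the combination include this library. PSMC6 in resveratrol replicate 2 had 1070.2, where the others had 984 to 1008.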

How the results depend on the processing

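DESeq2 and its size factors in edgeR kept every call of a proteasome gene, but with the size factors VCP was no longer called for the combination (0.05, adjusted p = 0.0841), its unadjusted p lying above 0.05. Library size alone gave 16 members for resveratrol, 19 for the combination and 1 for the combination against resveratrol, and turned PSMD2, not called in the main test, to 0.0579 for the combination against control (adjusted p = 0.0304) and 0.0545 against EGCG (adjusted p = 0.0437). The 2 members of the combination against resveratrol became 0 with every gene of at least 1 count, with adjusted p under 0.05, with only the groups compared and in replicates 4 to 6, 1 in replicates 1 to 3, 4 with the replicate block and 4 with the term for the sets. The combination against EGCG gave 17 members in replicates 1 to 3. Leaving out 1 library gave 0 to 1 members for EGCG, 21 to 26 for resveratrol, 24 to 31 for the combination, 0 to 3 for the combination against resveratrol, 22 to 27 for the combination against EGCG and 0 for the interaction. Replicate numbers are shared by the groups. Same-numbered libraries correlated between -0.0111 and 0.131 in their deviations, over 0.1 in 2 of 36 pairs, and best with their own number in 15. Within replicates 1 to 3 or 4 to 6 the highest correlation was 0.0826. These values do not settle whether the libraries were paired by number, and the main fit used no pairing. The block called 1 member with EGCG. Leaving out 1 library moved the PSMB8 to PSMB5 difference between 0.0791 and 0.125 for EGCG, 0.0677 and 0.1047 for resveratrol and 0.084 and 0.1362 for the combination. The unadjusted exact permutation p ran from 0.0433 to 0.158, from 0.0390 to 0.143 and from 0.0346 to 0.123. For PSMB10 to PSMB7 with the combination the range was 0.12 to 0.25, the latter without combination replicate 6 (exact permutation p = 0.0390, where the highest was 0.385). The causes were not tested. Depth limits mostly PSMA2 and PSMB10.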
